A study of Rattus norvegicus with 36 samples.

Results

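The kininogens, the fetuins and the kinin receptors were followed in rat lung through 14 probes of 7 genes, taken as every probe, other than control spots, whose gene name in the array files was Kng1, Kng2, Kng2l1, Fetub, Ahsg, Bdkrb1 or Bdkrb2. They are 7 of 25597 gene names on the array. All 14 probes passed a filter on dim signal, which 41767 of 45598 probes passed. Female Sprague Dawley rats received, at 13 weeks of age, 10 mg of the crystalline silica DQ-12 in saline into the trachea, or the saline vehicle alone, and RNA of the accessory lung lobe was hybridized to 1 single-color array per rat at D1, D30 and D180. Each of the 6 groups held 6 rats, and all 36 were of the same stock, sex and age at dosing. The lobe was a whole tissue, so that a change in the number of cells of a type and a change in RNA per cell cannot be told apart. The genes were chosen for their response to DQ-12 in these same arrays, so the differences between DQ-12 and vehicle rats are given below as a description. An adjusted p enters them only through the rule by which a probe is called. The differences between time points and those of vehicle rats over time were tested, and they share arrays with the differences that chose the genes.

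Kininogens are large secreted proteins of the cystatin superfamily, made mainly in the liver. Kallikreins cut kinins such as bradykinin out of them, and the kinins act on the receptors B1 (Bdkrb1), known as inducible, and B2 (Bdkrb2), known as constitutive, to dilate vessels, raise their permeability and cause pain. The rat also has T-kininogens, which are acute-phase proteins and inhibitors of cysteine proteases. Fetuin-A (Ahsg) and fetuin-B (Fetub) are liver-made members of the same superfamily, fetuin-A a carrier of calcium phosphate and fetuin-B an inhibitor of astacin proteases. In the RefSeq gene table (assembly GRCr8), the older symbols of Kng2 include those of T-kininogen (Kngt, Kngt1) and also Kngk, which is listed for Kng2l1 too, so the symbols do not settle which protein each probe stands for.

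The 3 kininogen genes are close copies of one another, and the probe sequences show which probes can tell them apart. The sequences below are those of the array files, written 5′ to 3′. In the pair Kng1 probe 1 and Kng2, capitals mark the bases that are identical where the probes overlap, and the lower-case letters inside the capitals are the 3 of 47 overlapping bases that differ. Kng2l1 probe 3 is shown because its longest run shared with a probe of another member was 6 bases, and Fetub probe 2 and Ahsg are shown for the fetuins; these 3 have no capitals.
Kng1 probe 1: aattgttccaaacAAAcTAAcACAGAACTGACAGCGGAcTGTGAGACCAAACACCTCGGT
Kng2: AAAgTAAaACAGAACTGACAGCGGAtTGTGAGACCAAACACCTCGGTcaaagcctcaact
Kng2l1 probe 3: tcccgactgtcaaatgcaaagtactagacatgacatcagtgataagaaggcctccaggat
Fetub probe 2: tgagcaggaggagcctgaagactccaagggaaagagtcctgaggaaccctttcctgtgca
Ahsg: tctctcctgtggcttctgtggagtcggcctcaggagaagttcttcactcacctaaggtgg
Each probe was designed on an mRNA, so it lies in exons. By the array files (build rn4), Kng1 probe 1 is at chr11:80013717-80013776 on the minus strand, and the Kng2 probe spans chr11:80127612-80127772 on the plus strand, which is longer than the probe itself. Kng1 probes 1 and 3 overlap by 57 bases and are not independent of each other. Kng1 probe 2 and Kng2l1 probe 2 share a run of 55 bases, and the array annotation lists RefSeq transcripts of both Kng1 and Kng2l1 for Kng2l1 probe 2. For Kng2l1 probes 1 and 3 it lists RefSeq transcripts of Kng2l1 alone, and their longest runs shared with a probe of another member were 7 and 6 bases. A GenBank entry listed for Kng2l1 probe 3 is also listed for Kng1 probe 2, and an entry listed for Kng2l1 probe 2 is also listed for Kng2. Kng2l1 probes 1 and 3 were designed on a different transcript of Kng2l1 from that of probe 2. A difference between genes and a difference between transcripts of Kng2l1 thus cannot be told apart with them.

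After DQ-12, the probes of Kng1, Kng2 and Fetub were higher at all 3 time points, together with the Kng2l1 probe that also matches Kng1. The probes with RefSeq transcripts of Kng2l1 alone and those of Ahsg and the receptors were not called. A probe was called when its fold change (FC) reached 2 and its adjusted p was under 0.05 (limma, Benjamini–Hochberg over all 41767 probes). Of the 14 probes, 7 were called higher at D1, 6 at D30 and 7 at D180, and 0 lower at any time. Over the whole array, 1.8% of probes were called higher at D1, 0.709% at D30 and 2.59% at D180, and 1.03, 0.0934 and 0.644% lower. The lowest DQ-12 rat exceeded the highest vehicle rat in 7, 7 and 6 of the 14 probes, and in 4.89, 1.5 and 3.35% of all probes. Since the genes were chosen on these comparisons, nothing is read from these shares. The median log2 FC over the 14 probes was 1.14, 0.94 and 0.79 at D1, D30 and D180, beside 0.003, -0.01 and -0.03 over all probes tested.

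**Figure D1:**
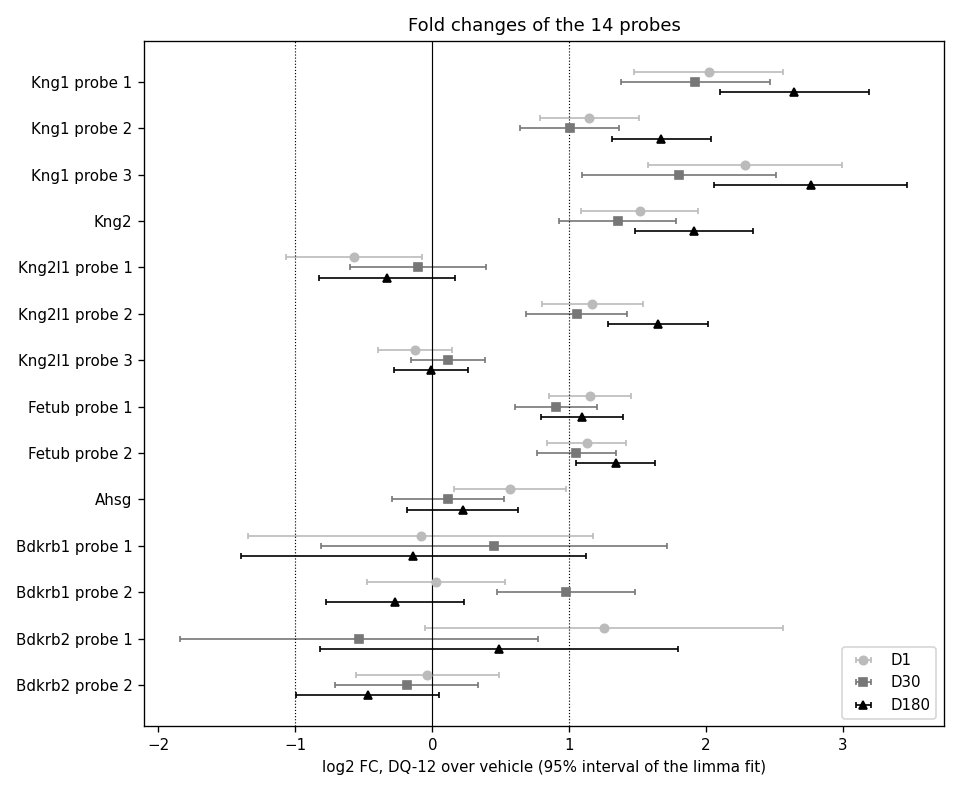
log2 FC of DQ-12 over vehicle for each of the 14 probes (rows) at D1, D30 and D180 (symbols), with 95% intervals from the limma fit; dotted lines mark a 2-fold change in either direction. The Kng1, Kng2, Kng2l1 probe 2 and Fetub probes lie at or near the right-hand dotted line or beyond it, from 0.90 to 2.76, and the other 7 probes lie between -0.57 and 1.26, the highest being those of the dim receptor probes Bdkrb2 probe 1 at D1 and Bdkrb1 probe 2 at D30.

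The overlapping Kng1 probes 1 and 3 had the largest fold changes of the kininogen probes, while Kng1 probe 2 was below the Kng2 probe at each time point. In Kng1 probe 1, the normalized log2 intensity in vehicle rats ranged from 8.91 to 9.03 (median 8.99) at D1, from 8.17 to 8.81 (median 8.39) at D30 and from 7.88 to 9.32 (median 8.41) at D180. In DQ-12 rats it ranged from 10.41 to 11.53 (median 11.07), from 10.15 to 10.67 (median 10.28) and from 10.14 to 12.32 (median 11.10), respectively. At each time point, all 6 DQ-12 rats were above all 6 vehicle rats, and the spread was widest at D180. The log2 FC was 2.02 ± 0.27 (SE), 1.92 ± 0.27 and 2.65 ± 0.27, that is 4.05-, 3.79- and 6.26-fold. Kng1 probe 3, which overlaps probe 1, had a log2 FC of 2.28 ± 0.35, 1.80 ± 0.35 and 2.76 ± 0.35. Its groups did not overlap either.

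The third Kng1 probe, probe 2, lies in another stretch of the transcript, and its fold changes were smaller. In vehicle rats its log2 intensity was 13.07 to 13.46 (median 13.30) at D1, 13.02 to 13.36 (median 13.15) at D30 and 12.76 to 13.44 (median 13.25) at D180. In DQ-12 rats it was 13.93 to 14.71 (median 14.48), 13.79 to 14.50 (median 14.18) and 14.24 to 15.67 (median 14.80). The groups again did not overlap at any time point. The log2 FC was 1.15 ± 0.18, 1.00 ± 0.18 and 1.67 ± 0.18, and at D30 this probe sat on the 2-fold threshold (2.00-fold). With scan date or slide as a block, fixed or random, its log2 FC at D30 was 0.85 to 0.92 and it was not called. The probe with the smaller fold changes is thus the one that shares its long run of bases with Kng2l1 probe 2.

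Kng2 has 1 probe, whose sequence is nearly that of Kng1 probe 1 in the overlap shown above. Like Fetub, Kng2 was among the genes the study selected on these same rats, so its response is not independent evidence. In vehicle rats its log2 intensity was 10.97 to 11.56 (median 11.32) at D1, 10.91 to 11.24 (median 11.06) at D30 and 10.36 to 11.32 (median 10.98) at D180. In DQ-12 rats it was 12.16 to 13.11 (median 12.89), 12.25 to 12.64 (median 12.45) and 12.13 to 13.97 (median 12.83). All 6 DQ-12 rats were above all vehicle rats at each time point. The log2 FC was 1.52 ± 0.21, 1.35 ± 0.21 and 1.91 ± 0.21 (2.86-, 2.55- and 3.76-fold). With 44 of 47 overlapping bases in common, RNA of Kng1 and Kng2 cannot be told apart with certainty by these probes.

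**Figure D2:**
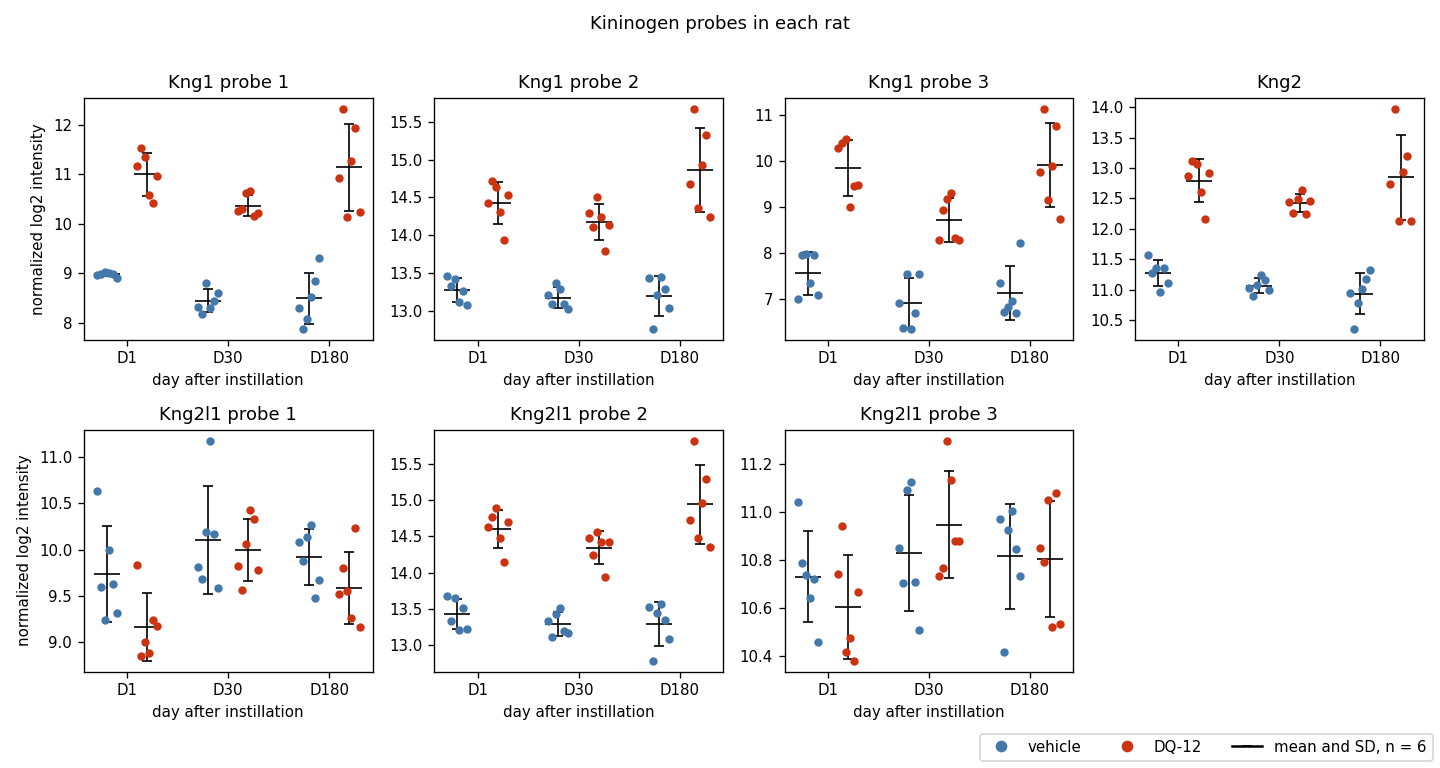
Normalized log2 intensity (vertical axis, a separate scale per panel) of the 7 kininogen probes in each rat at D1, D30 and D180; points are rats, vehicle in blue and DQ-12 in red, and bars are the mean and SD of 6 rats. The red and blue points are apart at each time point in the Kng1 and Kng2 panels and in Kng2l1 probe 2, and mixed in Kng2l1 probes 1 and 3.

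The 3 probes named for Kng2l1 disagreed. Kng2l1 probe 2, the one that also matches Kng1, had a log2 FC of 1.17 ± 0.18 at D1, 1.05 ± 0.18 at D30 and 1.65 ± 0.18 at D180, close to the values of Kng1 probe 2, and its groups did not overlap. At D30 it too was not called with those blocks (0.88 to 0.97). Kng2l1 probe 3 was measured well above background in every rat, and at D1 its log2 intensity was 10.46 to 11.04 in vehicle rats, with a median of 10.73, against 10.38 to 10.94 after DQ-12, with a median of 10.57. Its vehicle rats ran from 10.51 to 11.12 at D30 (median 10.78) and from 10.42 to 11.004 at D180 (median 10.88). Its DQ-12 rats ran from 10.73 to 11.30 (median 10.88) and from 10.52 to 11.08 (median 10.82), so the groups overlapped at each time point. Its log2 FC was -0.13 at D1 (95% interval -0.40 to 0.14), 0.12 at D30 (-0.15 to 0.39) and -0.01 at D180 (-0.28 to 0.26), intervals that do not reach a 2-fold change. Kng2l1 probe 1 was also well above background on all arrays. Its log2 FC was -0.57 (-1.07 to -0.08), -0.11 (-0.60 to 0.39) and -0.33 (-0.82 to 0.17), and at D1 4 of the 6 DQ-12 rats were below all vehicle rats. Its value at D1 did not pass the adjusted p (limma, 0.12). Within the scan date shared at D1, which held 1 vehicle array, the log2 difference was -0.08.

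The Kng2 probe and Kng2l1 probe 3 were also set against each other within each array. Since the pair was chosen for its unlike fold changes, the separation of the groups follows from that choice and is given as a description only. The log2 difference between the probes has no meaning as a level, because probes differ in brightness. It ranged from 0.33 to 0.65 in vehicle rats and from 1.78 to 2.65 in DQ-12 rats at D1. At D30, it was -0.005 to 0.50 and 1.19 to 1.70, and at D180 -0.14 to 0.59 and 1.08 to 3.18, so that the groups did not overlap at any time point.

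**Figure D3:**
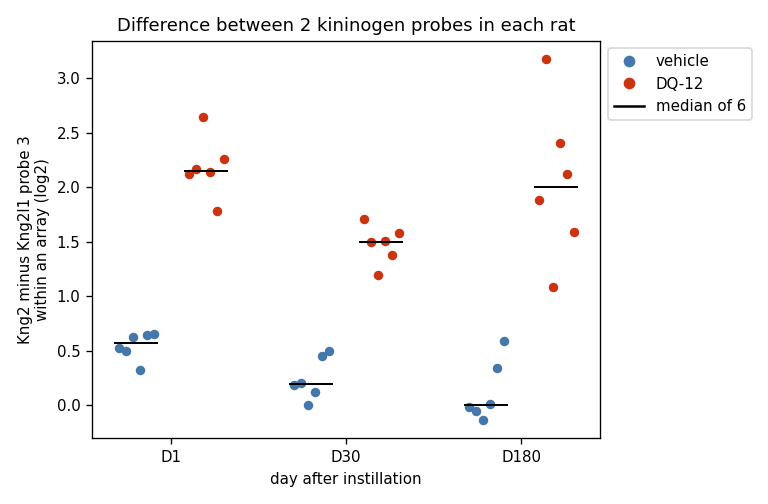
Log2 intensity of the Kng2 probe minus that of Kng2l1 probe 3 within each array (vertical axis), by day after instillation; points are rats, vehicle in blue and DQ-12 in red, and lines are medians of 6. The highest vehicle rat lies at 0.65, and the lowest DQ-12 rat at 1.08.

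The Kng1 and Kng2 probes and Kng2l1 probe 2 also varied together from rat to rat within groups, and Kng2l1 probes 1 and 3 followed them less. As a description over 36 arrays, the Pearson r of deviations from the group means was 0.97 between Kng1 probe 2 and Kng2l1 probe 2, 0.90 between Kng1 probe 1 and Kng2, and 0.87 between Kng2 and Kng2l1 probe 2. It was 0.51 between Kng1 probe 2 and Kng2l1 probe 3, 0.28 between Kng1 probe 2 and Kng2l1 probe 1, and 0.04 between Kng1 probe 3 and Kng2l1 probe 1. The pairs at 0.97 and 0.90 share runs of 55 and 21 bases, and the pair at 0.87 a run of 5. The probes of every pair were also read on the same arrays. Scan date and slide were not removed from the deviations. The groups did not weigh alike, as the SD of Kng1 probe 1 was 0.88 in DQ-12 rats at D180 and 0.04 in vehicle rats at D1. After the other kininogens, the named gene whose probe varied most like Kng1 probe 2 was Endod1 (r = 0.75), and for Kng2 it was Bpifa5 (r = 0.72), out of 41377 probes with a value on all arrays.

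**Figure D4:**
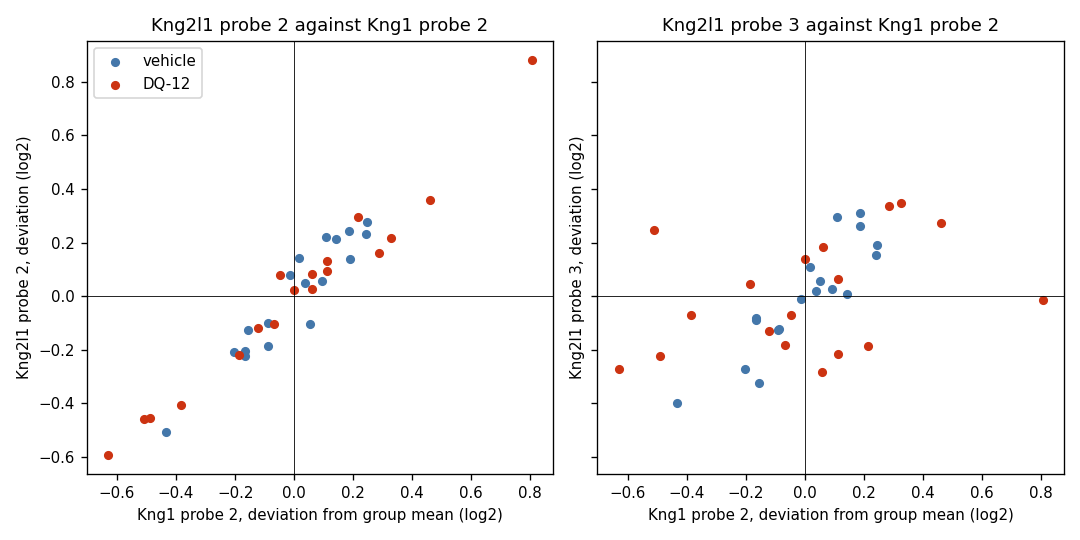
Deviation of each rat from its group mean (log2) in Kng2l1 probe 2 (left) and Kng2l1 probe 3 (right) against the deviation in Kng1 probe 2; points are the 36 rats, vehicle in blue and DQ-12 in red. The points follow a line on the left (r = 0.97) and scatter on the right (r = 0.51).

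Fetub, the fetuin that inhibits astacin proteases, was higher in DQ-12 rats in both of its probes. As said of Kng2, the study selected it on these rats. In Fetub probe 2, the log2 intensity in vehicle rats was 11.31 to 11.57 (median 11.45) at D1, 10.87 to 11.11 (median 10.92) at D30 and 10.78 to 11.46 (median 10.99) at D180. In DQ-12 rats it was 12.32 to 12.80 (median 12.56), 11.74 to 12.30 (median 12.01) and 11.72 to 12.96 (median 12.51). All DQ-12 rats were above all vehicle rats at each time point, with a log2 FC of 1.13 ± 0.14, 1.05 ± 0.14 and 1.34 ± 0.14. Fetub probe 1 lies elsewhere in the transcript. Its log2 FC was 1.15 ± 0.15, 0.90 ± 0.15 and 1.09 ± 0.15, so it fell short of 2-fold at D30 (1.87-fold), although the groups did not overlap there. At D180, 5 of 6 DQ-12 rats were above all vehicle rats, the lowest DQ-12 rat being at 11.63 and the highest vehicle rat at 11.70. Within groups, Fetub probe 2 varied most like the probes of Map1lc3b (r = 0.78), Gapdh (r = 0.76) and Ripor2 (r = 0.75), and with Kng2 at r = 0.63.

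Ahsg, the other fetuin, was dim and was not called. It was well above background on all 6 arrays of each group except DQ-12 at D180, where it was so on 5. In vehicle rats its log2 intensity was 4.53 to 5.45 (median 5.21) at D1, 4.76 to 5.54 (median 5.37) at D30 and 4.53 to 5.86 (median 5.66) at D180. In DQ-12 rats it was 5.09 to 6.16 (median 5.75), 5.01 to 5.71 (median 5.32) and 5.45 to 6.13 (median 5.67). At D1, 5 of 6 DQ-12 rats were above all vehicle rats, and at the later times the groups overlapped. The log2 FC was 0.57 (95% interval 0.16 to 0.98), 0.11 (-0.29 to 0.52) and 0.22 (-0.19 to 0.63). Within the scan date shared at D1, which held 1 vehicle array, the log2 difference was 0.30. The probe that varied most like Ahsg within groups was that of Spink6 (r = 0.82).

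The receptors gave little signal. For Bdkrb1, the B1 receptor, probe 1 was well above background on 3 of 36 arrays and probe 2 on 1 of 36, all of them at D30. In Bdkrb1 probe 2, at D30, the log2 intensity was 1.86 to 2.29 in vehicle rats, with a median of 1.88, against 1.88 to 3.98 after DQ-12, with a median of 2.97, and 4 of 6 DQ-12 rats were above all vehicle rats. Only 1 of these DQ-12 rats was well above background and 0 vehicle rats were, and the bound on its fold is under 1, so that no fold is given. Bdkrb1 probe 1 covered a wide range within both groups at D30, from 1.88 to 6.13 in vehicle rats and from 1.88 to 5.98 in DQ-12 rats.

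For Bdkrb2, the B2 receptor, probe 1 was well above background on 3 of 36 arrays, and at D1 on 0 vehicle arrays and 1 DQ-12 array. There its mean log2 intensity was 2.23 in vehicle and 3.48 in DQ-12 rats, a difference bounded at a level of at least 1.16-fold higher, set against the weakest signal that still counted as well above background on each vehicle array. That bound rests on DQ-12 rat 3 at 6.90, the other DQ-12 rats being at 2.00 to 3.97. The log2 FC was 1.26 with a 95% interval of -0.05 to 2.56, and 0.57 without that rat. Bdkrb2 probe 2 was well above background on 35 of 36 arrays, and its log2 FC was -0.04 (95% interval -0.56 to 0.48) at D1, -0.19 (-0.71 to 0.34) at D30 and -0.47 (-0.99 to 0.05) at D180. Its D180 ranges were 5.60 to 7.09 in vehicle rats and 5.03 to 6.17 in DQ-12 rats, and they overlapped. With slide as a fixed block, however, this probe was called lower at D180, at a log2 FC of -1.18 (limma adjusted p of 0.011).

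**Figure D5:**
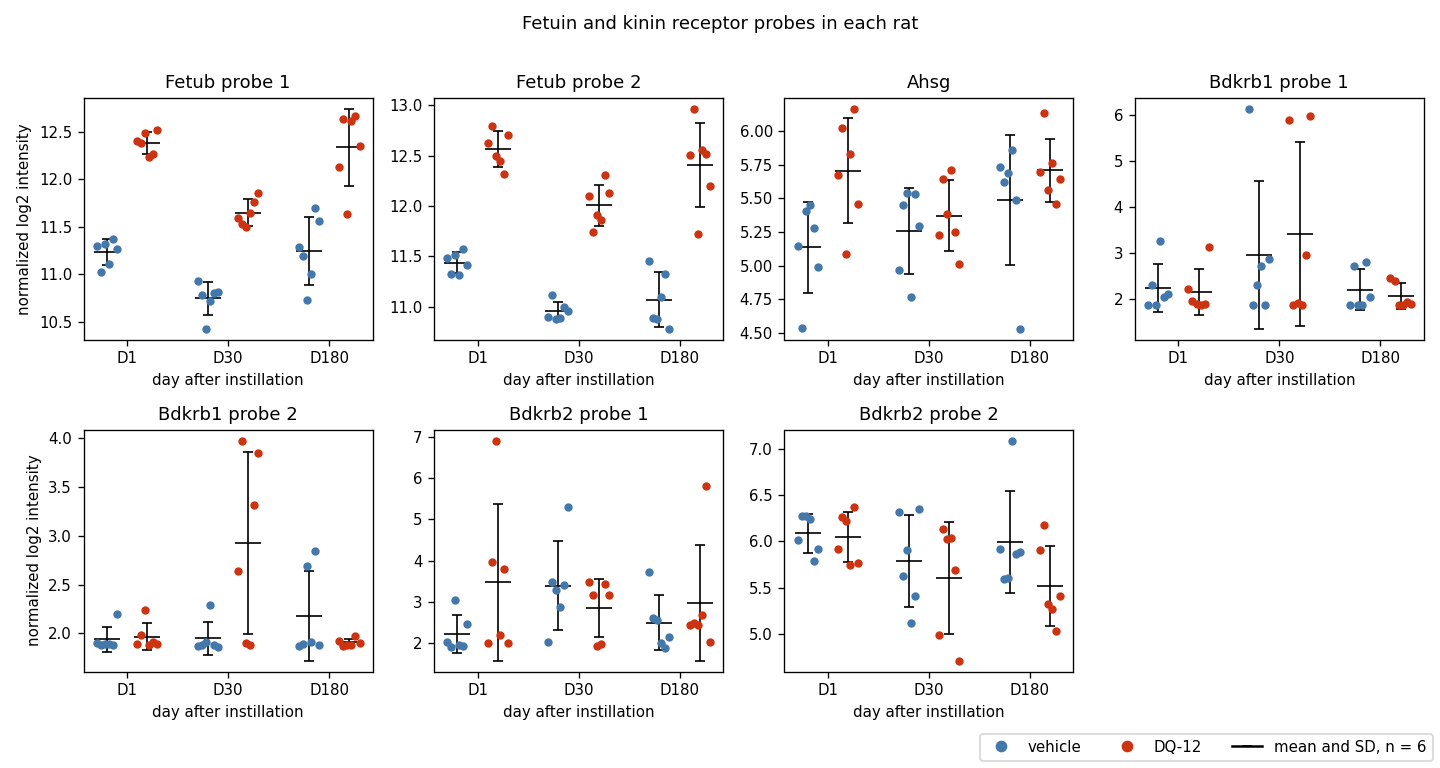
Normalized log2 intensity (vertical axis, a separate scale per panel) of the fetuin and kinin receptor probes in each rat at D1, D30 and D180; points are rats, vehicle in blue and DQ-12 in red, and bars are the mean and SD of 6 rats. Groups are apart in the Fetub panels, except for 1 DQ-12 rat of probe 1 at D180, and overlap in the others, with Bdkrb1 and Bdkrb2 probe 1 mostly at the floor near 2.

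Whether the response changed with time was tested as a difference in log2 FC between time points. None of the 14 probes passed in any of the 3 tests (limma, lowest adjusted p of 0.17 for D30 against D1, 0.15 for D180 against D30 and 0.27 for D180 against D1), where 1.98, 0.134 and 3.13% of all probes did. At an unadjusted p under 0.05, 1, 3 and 1 of the 14 probes differed. The point estimates of Kng1, Kng2 and Kng2l1 probe 2 were lowest at D30 and highest at D180. From D30 to D180, the log2 FC of Kng1 probe 2 moved by 0.67 (95% interval 0.16 to 1.18, adjusted p of 0.31) and that of Kng2 by 0.56 (-0.05 to 1.16, adjusted p of 0.52). The 3 probes that differed between D30 and D180 before adjustment were Kng1 probe 2, Kng2l1 probe 2 and Bdkrb1 probe 2. The intervals leave room for both no change and a change of over 2-fold in Kng2.

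In vehicle rats, both Fetub probes were lower at D30 than at D1. Probe 1 fell by 0.49 ± 0.15 on the log2 scale (limma adjusted p of 0.039) and probe 2 by 0.48 ± 0.14 (adjusted p of 0.033). All 6 vehicle rats at D30 were below all 6 at D1 in both probes, but how many of all probes separate in this way was not counted, so nothing is read from it. Of all probes, 6.96% differed in this comparison at an adjusted p under 0.05, and 3.54% were lower. No scan date or slide held vehicle arrays of both times, so time and scan date cannot be told apart here. Neither Fetub probe passed with scan date or slide as a random block, or with each array scaled to its 75th percentile. From D1 to D180, 0 of the 14 probes differed in vehicle rats (limma, lowest adjusted p of 0.0999, for Fetub probe 2, with 8.46% of all probes passing and 1 of the 14 at an unadjusted p under 0.05).

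The enzymes around the kininogens were read from lists, with 1 probe per gene and 23721 genes tested, of which 1.98, 0.881 and 2.83% were called higher at D1, D30 and D180 and 0.999, 0.11 and 0.721% lower. Of the kinin-forming enzymes and their inhibitors, 6 of 7 were tested and 1 was called: Serping1, the C1 inhibitor, which also inhibits plasma kallikrein, rose at D180 from 14.15 ± 0.09 (SD, n = 6) to 15.28 ± 0.21 in log2 intensity (log2 FC 1.13). Klk1, a tissue kallikrein whose probe was dim, had a log2 FC of -0.78 at D180, F11 (coagulation factor XI) one of -0.70 at D180 and Serpina4 (kallistatin) one of 0.66 at D1. None of these was called. F11 passed the adjusted p (limma, 0.030) and missed only the 2-fold threshold, while Klk1 (0.22) and Serpina4 (0.16) did not pass. Over the list, the median log2 FC came to 0.08, 0.14 and -0.01, beside -0.01, -0.02 and -0.03 over all genes. At each time point, 2 of the 6 genes had an unadjusted limma p under 0.05.

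Of 13 kinin-degrading peptidases, Cpb2 was called, and it was higher at all 3 time points. Cpb2 encodes a plasma carboxypeptidase that is activated during clotting. It was well above background on 0 vehicle and 4 DQ-12 arrays at D1 and D30 alike, which gives at least 1.73- and 1.70-fold higher. At D180 it was so on 1 vehicle and all 6 DQ-12 arrays, with means of 3.55 ± 0.47 and 5.83 ± 1.24. Ace, the enzyme that inactivates bradykinin in lung vessels, had a log2 FC of -0.68 at D180, Thop1 one of 0.64 at D1 and Cpn2, which was dim, one of -0.81 at D1. None of these 3 was called. Ace and Thop1 passed the adjusted p (limma, 0.0003 and 2.2e-05) and missed only the 2-fold threshold, while Cpn2 did not pass (0.37). At an unadjusted limma p under 0.05, 3, 6 and 9 of the 13 peptidases differed at D1, D30 and D180.

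The cysteine proteases are the targets of cystatins and T-kininogens. Of 11 measured, Ctsk (cathepsin K) was called higher at D30 (log2 FC 1.04) and D180 (2.88), where it rose from 8.95 ± 0.28 to 11.83 ± 0.55, and Ctsz (cathepsin Z) at D180 (1.03). Ctss and Ctsh had a log2 FC of 0.95 and 0.73 at D180 and Ctso one of -0.67 at D1, short of the threshold. At an unadjusted limma p under 0.05, 6, 8 and 7 of the 11 proteases differed at D1, D30 and D180. Among 5 other cystatins on the array, Cst7 was called higher at D180 (1.18), while Cstb (0.74 at D180), Cst6 (-0.47 at D30) and Csta (0.35 at D180) were not. Cstb passed the adjusted p (limma, 5.8e-05) and missed only the 2-fold threshold, while Cst6 (0.25) and Csta (0.67) did not pass. Of these cystatins, 2, 3 and 2 differed at that unadjusted p. Of the 5 astacin proteases, targets of fetuin-B, 0 were called in either direction (2, 1 and 0 at an unadjusted limma p under 0.05), the largest values being those of Astl (0.65 at D30), Mep1b (0.45 at D30, under the detection limit on every array then) and Bmp1 (-0.40 at D1).

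Since kininogens and fetuins are known as liver products, 14 genes of hepatocytes were read as markers of that cell type. Their mean log2 intensity per array was 4.26 to 4.91 in vehicle and 4.29 to 4.76 in DQ-12 rats at D1, 4.04 to 4.40 and 4.13 to 4.40 at D30, and 4.11 to 5.06 and 4.47 to 5.02 at D180. Of the 14, 1 at D1, 6 at D30 and 3 at D180 were well above background on 0 arrays of that time point. Alb (albumin) was well above background on 1 of 36 arrays and Cps1 on 0. At an unadjusted limma p under 0.05, 6, 3 and 4 of the 14 differed at D1, D30 and D180. Hal was called higher at D30 (at least 1.27-fold) and D180 (at least 4.89-fold), Apoa2 lower at D1 (log2 FC -1.07) and Cyp2e1 lower at D180 (-1.09). Fgg, a fibrinogen chain, had a log2 FC of 0.94 at D30, and Apob and Apoh, both dim, -1.15 at D180 and -0.91 at D1; these were not called. Of the 4 lung epithelium markers, whose mean was 17.1 to 17.5, Sftpc sat at the top value of the quantile normalization (18.42, SD of 0) in 5 of 6 groups, so that the normalized values could not show a change in it. Of the others, 0 were called, with 3, 1 and 1 at an unadjusted limma p under 0.05 (Ager -0.42 at D180, Scgb1a1 -0.35 and Sftpb -0.18 at D1). Of 8 leukocyte markers, 1 was called higher at D1 (Csf3r), 3 at D30 (Cd68, S100a8, S100a9) and 5 at D180 (these with Csf3r and Itgam), all of them known from myeloid cells. The mean level of the 8 was 9.68 to 10.09 in vehicle and 9.90 to 10.52 in DQ-12 rats at D1. It was 9.48 to 10.15 and 10.21 to 10.80 at D30, and 9.77 to 9.92 and 10.82 to 11.30 at D180. These ranges overlapped at D1 and did not overlap at D30 and D180. Cd79a (-0.53 at D30), Ptprc (0.32 at D180) and Cd3e (0.22 at D180), the markers of B cells, of all leukocytes and of T cells, were not called. The part of leukocyte content in the kininogen and Fetub values was not tested.

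Arrays of the groups were scanned partly on different dates. At D1, only 1 vehicle array was scanned on the date of the 6 DQ-12 arrays, and on that date the 7 probes called there had a log2 difference of 0.96 to 1.97. Within the dates shared by both groups, the same probes gave 0.69 to 1.76 and 0.93 to 1.85 at D30 and 1.13 to 2.96 (3 rats per group) and 1.48 to 4.05 (1 rat per group) at D180. All kept their direction. With scan date as a fixed block, 2 of the 7 probes (Kng1 probe 1 and Fetub probe 1) were called at D1, where the estimate rests on that 1 vehicle array.

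In the RefSeq table (assembly GRCr8), Kng1, Kng2, Kng2l1, Fetub and Ahsg lie in a row on chromosome 11, with Hrg and a like gene between Kng2l1 and Fetub. Of the 10 measured genes that flank this row, from Rtp1 to Etv5, 0 were called at any time point, and 4, 1 and 5 had an unadjusted limma p under 0.05 at D1, D30 and D180. Bdkrb2 and Bdkrb1 are neighbors on chromosome 6, and 0 of 5 measured genes around them were called, with 4, 2 and 0 at that unadjusted p. Of all genes tested, only 1.98, 0.881 and 2.83% were called higher, so counts of 0 among so few do not set these neighbors apart from other genes. RefSeq windows of the 250 bases before the start were given for 5 of the 7 genes, and those of Kng1 and of 1 start of Kng2l1 are shown. Aligned without gaps, 148 of the 227 overlapping bases of these 2 windows were identical (65.2%). They lie at chr11:91340149-91340398 (minus strand) and chr11:91483169-91483418 (plus strand) in GRCr8. Capitals mark matches, on either strand, to TTCNNNGAA, the STAT motif, or TTGCNNAA, the core of the C/EBP motif; factors of both families are known to drive acute-phase genes.
Kng1: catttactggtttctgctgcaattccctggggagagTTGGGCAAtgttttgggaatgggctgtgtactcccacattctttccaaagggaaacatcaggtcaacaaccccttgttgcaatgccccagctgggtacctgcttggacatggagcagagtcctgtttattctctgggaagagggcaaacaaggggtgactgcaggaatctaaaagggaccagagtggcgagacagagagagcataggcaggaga
Kng2l1: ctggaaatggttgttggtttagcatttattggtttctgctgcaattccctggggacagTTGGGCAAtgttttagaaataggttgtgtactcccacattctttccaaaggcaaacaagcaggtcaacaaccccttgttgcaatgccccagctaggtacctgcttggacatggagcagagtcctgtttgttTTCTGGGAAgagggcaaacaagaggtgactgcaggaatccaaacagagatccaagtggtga
The C/EBP letters were matched once in each of these windows, 214 and 192 bases before the start, and once in that of Kng2, 59 bases before its start. The Kng2 window lies further upstream, and 94 of the 95 bases it has in common with the Kng1 window were identical. They were matched at 2 places in the window of Ahsg, which was not called, 165 and 60 bases before its start, and at 0 in those of Bdkrb1 and of the other start of Kng2l1. The STAT letters were matched in the windows of Kng2l1 only, 61 bases before the start shown and 160 before the other. These 2 windows overlap by 151 identical bases, so it is the same match counted from 2 starts. Of all 33469 windows of this length, 7.67% held the STAT and 9.22% the C/EBP letters, and a match describes the letters and is not a measured site.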

How the data were processed

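Each rat's accessory lobe RNA was labeled with Cy3 and hybridized to a single-color Agilent array, and the authors extracted the deposited intensities with Feature Extraction 12.0.1.1. The authors' deposited log2 values equal the 75th percentile scaled, probe-median centered log2 intensities (r = 0.99997) and served as an alternative. From the background-corrected intensity, 232 to 596 spots marked as outliers on each array were dropped, and replicate spots were averaged on the log2 scale. Probes that, on 6 or more arrays, exceeded the 95th percentile of 308 negative controls were quantile normalized. Per array, 51.4 to 75.5% of probes were well above background, and the number of arrays limits the precision.

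A model of 6 group means was fitted to 36 arrays in limma 3.58.1 (R 4.3.3), as in the study's methods, but without its batch correction, whose variable is not given in the sources used here; slide (19) and scan date (11) were alternatives. Benjamini–Hochberg adjustment was made over all probes, and each probe was kept apart because of close paralogs. The genes and lists were chosen with earlier results of these data known. Every member probe is named, and of each list the called genes and up to 3 others with the largest absolute log2 FC. The labels give each array as a separate rat. The fit was tested on simulated data. Other alternatives changed the intensity column, background correction, filter, model and fold threshold, and left out each rat in turn. Sequences came from the array files and from RefSeq; for Fetub and Bdkrb2 promoters none was used here.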

Additional observations from a re-analysis of the deposited data

Results flagged for a closer look

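Of 84 groups of 6 rats (14 probes in 6 groups), 9 held 1 rat set apart from the other 5 by Dixon's criterion, where chance marks about 1 in 20. None lay in the Kng1, Kng2, Kng2l1 or Fetub probes. For Ahsg, vehicle rat 6 at D180 was at a log2 intensity of 4.53 (others 5.49 to 5.86). For Bdkrb2 probe 2, vehicle rat 4 at D180 was at 7.09 (others 5.60 to 5.92), and for Bdkrb2 probe 1, DQ-12 rat 5 at D180 was at 5.80 (others 2.03 to 2.69).

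The other 6 were in Bdkrb1, mostly below background. In probe 1, vehicle rat 4 at D1 was at 3.26 (others 1.87 to 2.32), DQ-12 rat 6 at D1 at 3.14 (others 1.87 to 2.23) and vehicle rat 1 at D30 at 6.13 (others 1.88 to 2.87). In probe 2, vehicle rat 6 at D1 was at 2.20 (others 1.88 to 1.90), DQ-12 rat 3 at D1 at 2.24 (others 1.88 to 1.98) and vehicle rat 4 at D30 at 2.29 (others 1.86 to 1.91).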

How the results depend on the processing

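The log2 FC of the 7 probes called higher kept its direction under every setting run. The counts of called probes at D1, D30 and D180 (7, 6 and 7) stayed within 1.5 times under the settings run, except that 1 probe per gene name gave 4, 4 and 4 of 7 genes, scan date as a fixed block gave 2 at D1, and scan date as a random block gave 4 at D30. At D30, Kng1 probe 2 and Kng2l1 probe 2 were under 2-fold in all 4 block fits: 0.85 and 0.88 with scan date fixed, 0.85 and 0.91 with slide fixed, 0.91 and 0.95 with scan date random, and 0.92 and 0.97 with slide random. Fetub probe 1 was called there under both fixed blocks (1.01 and 1.04), and Bdkrb1 probe 2, which was dim, with slide random (1.00). Leaving out each rat in turn gave 7 at D1, 5 to 7 at D30 and 6 to 7 at D180; Kng1 probe 2 was not called at D30 (0.94 to 0.99) without any 1 of 6 rats (vehicle 2, 5 or 6, DQ-12 1, 3 or 4), and Bdkrb1 probe 2 was called there (1.03 to 1.19) without vehicle rat 4 or DQ-12 rat 1, 3 or 4. The replicate numbers did not pair the rats (r of -0.15 to 0.23 over 18 pairs of the same number), and with the replicate block the counts were 7, 6 and 7. Of the 2 Fetub probes that differed in vehicle rats between D1 and D30, 0 passed with 75th percentile scaling, with the deposited log2 values, with scan date as a random block and with slide as a random block, and 1 with 1 probe per gene name, which tests 1 Fetub probe; a fixed scan date or slide block leaves no estimate of it. Array weights added 1 probe (Fetub probe 2, -0.43) in vehicle rats between D1 and D180. With slide as a fixed block, Bdkrb2 probe 2 was called lower at D180 (-1.18, against -0.47), and its log2 FC differed between D30 and D180 (-1.21). Of 1104 log2 FC values of single probes over these settings, 1093 moved by less than 1 SD, 11 moved further, and 0 called values changed sign. Leaving out 1 of 6 rats cannot move a value by 1 SD, and a change of moderation leaves it as it was, so little is read from that count. Within the scan dates shared by both groups, which it leaves out, 50 values moved by less than 1 SD and 20 moved further. Causes were not tested. Dim receptor probes are limited by signal over background.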
